A study of Homo sapiens with 7 samples.

Results

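Aldo-keto reductases and steroid dehydrogenases are enzymes that reduce or oxidize steroids, prostaglandins, retinoids and aldehydes with a nicotinamide cofactor. A set of 10 of them was followed in PC3 prostate cancer cells upon doxycycline treatment: AKR1A1, AKR1B1, AKR1B10, AKR1C1, AKR1C2, AKR1C3, AKR1C4, DHRS9, HSD17B4 and HSD17B6. The probes were found by gene symbol in the platform annotation, and 6 of the 10 genes had a named probe, with 1 probe each (AKR1B10, AKR1C2, AKR1C3, AKR1C4, HSD17B4 and HSD17B6). No probe used here carries the name AKR1A1, AKR1B1, AKR1C1 or DHRS9, so these 4 genes were not analysed here. The 6 probes are among 19337 tested probes, of 47323 on the array. As no gene had a second named probe, agreement between probes of the same gene could not be compared. The genes were chosen on results of this same comparison, the log2 fold changes and adjusted p-values of Dox against No dox. The values therefore describe these genes, and the number called says nothing about the family.

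The Dox group held 4 arrays (replicates 1 to 4) of doxycycline-treated PC3 TRIPZ-MITFA cells, and the No dox group held 3 arrays (replicates 2, 3 and 4) of the same cells without the drug. PC3 was established from prostate cancer that had spread to bone, and all 7 samples carried a lentiviral cassette from which doxycycline induces tagged MITFA, an isoform of the melanocyte-inducing transcription factor MITF. The sources used here state neither the doxycycline dose and time for the arrays nor whether the transduced line is a clone. Doxycycline was not given to cells lacking the cassette in the arrays analysed, so the drug and MITFA cannot be told apart. No source says that the arrays came from separate cultures, and the p-values then reflect only how much the arrays vary, possibly for technical reasons. Between 15562 and 16618 probes were above background (detection p-value under 0.01) on an array, and correlations between arrays lay between 0.994 and 0.996. MITF signal averaged 6.76 ± 0.12 on the log2 scale in Dox (SD, n = 4) and 6.82 ± 0.11 in No dox (SD, n = 3; adjusted p = 0.90 from limma). As no source says that the MITF probe lies in the cassette, induction was not checked by it. By qRT-PCR and western blot, the paper reports induction of MITFA in doxycycline-treated cells of this line. It does not say whether these were the arrayed cultures. Of the 5 epithelial markers, 4 had a named tested probe. KRT8, KRT19 and 2 of 3 EPCAM probes were above background on all 7 arrays. CDH1 was above background on 4 Dox arrays and 2 No dox arrays. The leukocyte marker CD79A and the endothelial marker PECAM1 were also above background on all 7 arrays, so detection does not set epithelium apart. No marker of epithelium, leukocytes, endothelium or fibroblasts was called at an adjusted p under 0.05. The largest difference among them was at CD79A, a B cell marker, whose log2 signal averaged 5.56 ± 0.14 in Dox (SD, n = 4) and 4.95 ± 0.22 in No dox (SD, n = 3) (adjusted p = 0.16 from limma), and its part in the results was not tested.

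In the prostate some of these enzymes help set how much active androgen a cell holds. AKR1C2 turns dihydrotestosterone into a weak metabolite, AKR1C3 makes testosterone from androstenedione and also acts on prostaglandins, and HSD17B6 and DHRS9 can oxidize the weak metabolite back. AKR1C1 inactivates progesterone, AKR1C4 is known mainly from the liver, AKR1B10 reduces retinal and other aldehydes, AKR1A1 and AKR1B1 reduce aldehydes and sugars, and HSD17B4 is a peroxisomal enzyme that oxidizes estradiol and takes part in fatty acid breakdown.

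The AKR1C genes are near copies that lie side by side on chromosome 10, in the order AKR1C1, AKR1C2, AKR1C3, AKR1C8 and AKR1C4 among protein-coding genes of the RefSeq annotation. Their promoters are shown to let the copies be compared, and because MITF is known to bind E-boxes. Each sequence gives the 250 bases before a transcription start (RefSeq, GRCh38.p14), 5′ to 3′ on the gene's strand, with matches in capitals to the E-box CATGTG, which on the other strand reads CACATG.
AKR1C2 (chr10:5003858-5004107, minus strand): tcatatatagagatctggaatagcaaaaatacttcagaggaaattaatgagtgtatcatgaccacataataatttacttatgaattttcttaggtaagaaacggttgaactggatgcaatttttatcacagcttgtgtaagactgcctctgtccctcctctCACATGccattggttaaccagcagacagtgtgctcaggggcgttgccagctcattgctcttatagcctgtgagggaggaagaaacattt
AKR1C1 (chr10:4963165-4963414, plus strand): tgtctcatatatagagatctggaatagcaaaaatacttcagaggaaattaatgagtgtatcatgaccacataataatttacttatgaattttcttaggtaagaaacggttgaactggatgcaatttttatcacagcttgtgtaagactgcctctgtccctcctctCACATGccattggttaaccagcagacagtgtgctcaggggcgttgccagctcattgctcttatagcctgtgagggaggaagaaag
AKR1C3, upstream start (chr10:5048531-5048780, plus strand): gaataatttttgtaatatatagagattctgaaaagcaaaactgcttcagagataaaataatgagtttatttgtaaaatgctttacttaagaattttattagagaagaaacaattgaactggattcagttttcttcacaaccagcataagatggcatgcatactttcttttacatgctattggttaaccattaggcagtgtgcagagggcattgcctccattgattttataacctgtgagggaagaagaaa
AKR1C3, downstream start (chr10:5094164-5094413, plus strand): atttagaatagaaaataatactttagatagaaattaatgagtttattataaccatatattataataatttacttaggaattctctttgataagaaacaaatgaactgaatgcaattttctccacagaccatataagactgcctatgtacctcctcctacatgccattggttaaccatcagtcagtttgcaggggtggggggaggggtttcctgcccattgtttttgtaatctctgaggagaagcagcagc
AKR1C4 (chr10:5196587-5196836, plus strand): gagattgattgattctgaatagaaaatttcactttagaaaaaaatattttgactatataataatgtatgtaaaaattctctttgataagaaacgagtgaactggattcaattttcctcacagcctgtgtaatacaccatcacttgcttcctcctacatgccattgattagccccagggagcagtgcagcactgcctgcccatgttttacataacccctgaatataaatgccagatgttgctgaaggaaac
AKR1C2 and AKR1C1 had the same base at 245 of 246 aligned positions (99.6%), with their windows shifted by a few bases. All other pairs of windows were between 78.0% and 81.1% identical, over 214 to 239 aligned positions. Positions facing a gap were left out of these shares. AKR1C2 and AKR1C1 each held a CACATG, at position −89 in AKR1C2 and −85 in AKR1C1, counted back from the start. The other 3 windows held no CATGTG on either strand, which 9.42% of 35116 promoter windows of this length hold. CACGTG, the palindromic E-box (6.34% of windows), and TGACNNNGC, the core of the antioxidant response element bound by NRF2 (10.9% of windows, both strands searched), were in none of the 5 AKR1C windows. Among members outside the AKR1C genes, AKR1A1 held a CACGTG at −9. Separate DHRS9 windows held a CACATG at −10 and a TGACNNNGC at −163, and the AKR1B1 and HSD17B4 windows held none of these. Every AKR1C window held at least 1 match to the general form CANNTG, which includes the E-boxes above and is in 61.8% of windows. A match is a description of the letters and not a site of binding.

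AKR1C2 rose upon doxycycline treatment and was the clearest change among the 6 genes. Its raw signal intensity was 136, 146, 131 and 129 on the 4 Dox arrays, against 101, 101 and 104 on the 3 No dox arrays. After background correction and quantile normalization, the log2 signal was 6.08, 6.31, 6.08 and 5.95 in Dox, against 5.10, 5.18 and 5.17 in No dox. The lowest Dox array exceeded the highest No dox array, with a gap wider than the range within either group. The mean log2 signal was 6.11 ± 0.15 (SD, n = 4) in Dox and 5.15 ± 0.04 (SD, n = 3) in No dox, which is 1.94-fold or 0.96 on the log2 scale (SE 0.09, 95% CI 0.76 to 1.16), with an adjusted p of 0.0018 from limma over all tested probes. This was the 8th largest increase of the 19337 probes, of which 0.134% were called higher and 0% lower at an adjusted p under 0.05 from limma, with 8.50% at an unadjusted p under 0.05. As this contrast was in view when the genes were chosen, nothing is read from 1 of 6 members being called.

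The AKR1C2 probe was dim, and the size of its difference depended on the background correction. The No dox intensities of 101 to 104 stood only 15.0 to 17.3 units above the median of all probes on their arrays, against 42.8 to 60.1 units in Dox. The ratio of mean intensities was 1.33 without any correction. On the authors' processed log2 values, AKR1C2 was 7.08 in Dox and 6.67 in No dox, which is 1.33-fold or 0.41 on the log2 scale (95% CI 0.31 to 0.51), with an adjusted p of 0.00017 from limma. With a background model that uses no control probes (normexp) it was 0.51 on the log2 scale. AKR1C2 was thus called on each of these sets of values, and passed 1.5-fold with the first correction only.

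**Figure D1:**
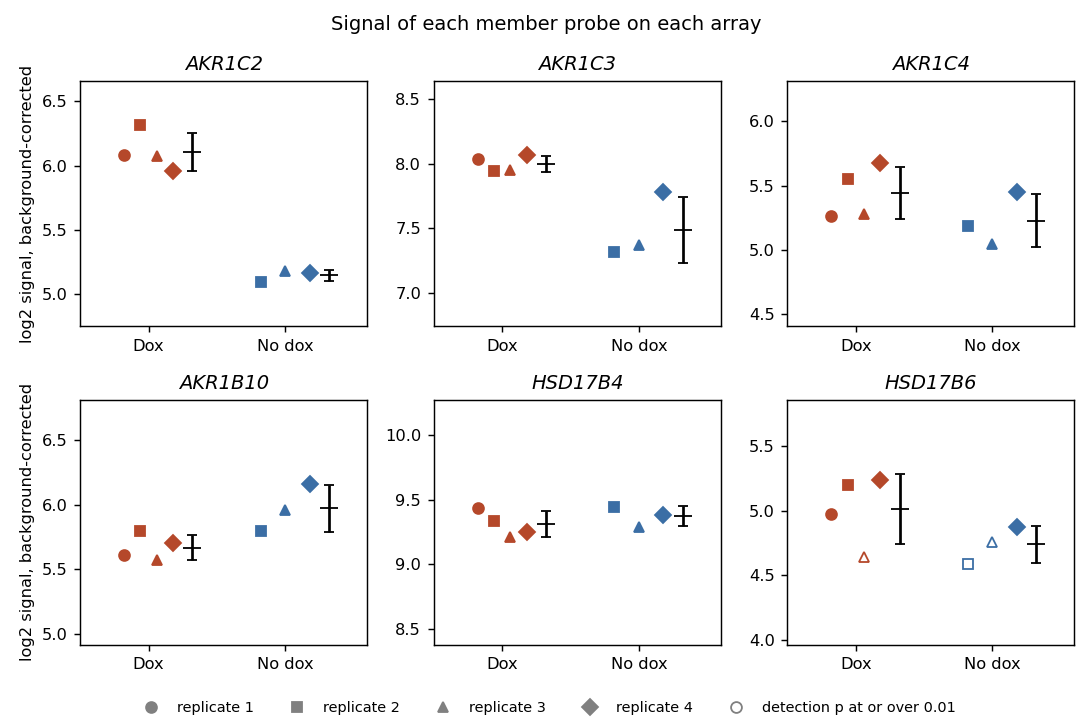
Log2 signal after background correction (vertical axis, each panel spanning the same range) of the 6 member probes on each array, with Dox to the left of No dox; marker shapes give the replicate number, open markers a detection p-value at or over 0.01, and black bars the mean ± SD of each group. The groups are far apart for AKR1C2, next to each other for AKR1C3 and AKR1B10, and overlap for AKR1C4, HSD17B4 and HSD17B6.

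AKR1C3 was brighter than background on all 7 arrays and higher in Dox on each set of values, with a call on only some of them. Its log2 signal was 8.04, 7.95, 7.95 and 8.07 in Dox, against 7.31, 7.37 and 7.78 in No dox. The Dox arrays were close together, and the No dox arrays were spread, with replicate 4 nearer to the Dox arrays than to the other No dox arrays. The groups did not overlap, a separation with Dox higher that 5.07% of all tested probes show. The log2 fold change was 0.51 (SE 0.11, 95% CI 0.26 to 0.76), 1.43-fold, with an adjusted p of 0.24 from limma, and it did not pass over all probes. Without No dox replicate 4 it was 0.66 and passed (adjusted p = 0.034 from limma). With any other array left out it was 0.42 to 0.53 and did not pass (adjusted p = 0.42 to 0.51 from limma). On the authors' values the log2 fold change was 0.39 (95% CI 0.25 to 0.53), 1.31-fold, and it passed as well (adjusted p = 0.0068 from limma), where 0.393% of probes were called higher and 0.129% lower (0.522% together).

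AKR1C4 had values near background in both groups. Its log2 signal was 5.26, 5.55, 5.28 and 5.67 in Dox, against 5.18, 5.05 and 5.45 in No dox, and the groups overlapped. The log2 fold change was 0.21 (95% CI −0.07 to 0.50) with an adjusted p of 0.69 from limma, an interval that includes no change and a 1.41-fold increase. On the authors' values it was 0.08 (95% CI −0.03 to 0.19, adjusted p = 0.70 from limma), and with each array left out it lay between 0.12 (without No dox replicate 3) and 0.33 (without No dox replicate 4). In each group replicate 4 was the highest array for AKR1C4, as it was for AKR1C3 and HSD17B6.

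A call at AKR1C2 and none at AKR1C4 does not compare these probes, so the differences between the 3 AKR1C probes were taken on each array. Copies this close can share signal at a probe, and the probe sequences were not used here, so the part of each copy in a signal was not tested. The log2 signal of AKR1C2 minus that of AKR1C4 was 0.82, 0.76, 0.80 and 0.28 in Dox, against −0.08, 0.13 and −0.28 in No dox. The groups did not overlap, and Dox replicate 4 stood below the other 3 Dox arrays. In No dox, replicate 4 was the lowest array too. The difference changed by 0.74 ± 0.18 (SE, 95% CI 0.28 to 1.21) between Dox and No dox (exact two-sided permutation test over 35 splits, p = 0.057, adjusted over 3 pairs 0.086). On the authors' values it changed by 0.33 (exact p = 0.057, adjusted 0.086). AKR1C2 minus AKR1C3 changed by 0.45 ± 0.16 (SE, 95% CI 0.02 to 0.87, exact p = 0.057, adjusted 0.086). On the authors' values that change was 0.02 (exact p = 0.83). For AKR1C2 minus AKR1C3, replicate 4 was again the lowest array in both groups, and the permutation test does not use the replicate number. AKR1C3 minus AKR1C4 changed by 0.30 ± 0.13 (SE, 95% CI −0.03 to 0.62, exact p = 0.086, adjusted 0.086), and by 0.31 on the authors' values (exact p = 0.029, adjusted 0.086). None of the 3 pairs passed after adjustment on either set of values, and 35 splits allow no p under 0.029. The SE and intervals use the pooled variance of the groups and a t distribution, not the permutation test, so an interval and its p can differ. The genes were chosen on this same comparison, so the p-values and intervals here are not free of that choice. The 3 differences are not independent, as each follows from the other ones.

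**Figure D2:**
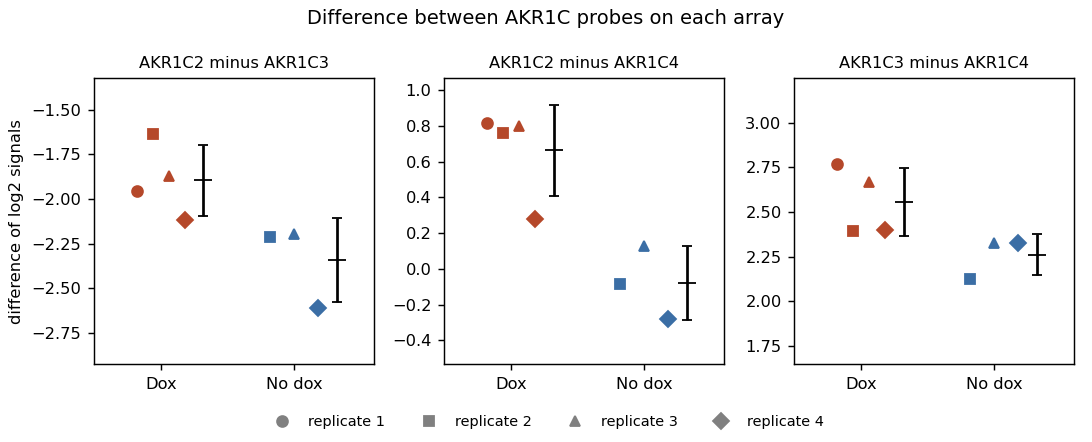
Difference of the log2 signals of 2 AKR1C probes on each array (vertical axis, log2 units, each panel spanning the same range), with Dox to the left of No dox, marker shapes for the replicate number and black bars for the mean ± SD. In each of the 3 panels the Dox arrays lie above the No dox arrays. For AKR1C2 minus AKR1C4, Dox replicate 4 is closest to No dox (0.28), and replicate 4 is the lowest array in both groups. The 3 differences are not independent, as each follows from the other ones.

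Among the remaining 3 genes none was called, and only AKR1B10 had groups that did not overlap. AKR1B10 had a log2 signal of 5.61, 5.80, 5.57 and 5.70 in Dox, against 5.80, 5.96 and 6.16 in No dox. The Dox arrays were the lower ones, and Dox replicate 2 and No dox replicate 2 nearly touched. The log2 fold change of AKR1B10 was −0.30 (95% CI −0.52 to −0.09) with an adjusted p of 0.47 from limma, and −0.14 on the authors' values (adjusted p = 0.33). A separation with Dox lower was seen in 4.24% of all tested probes.

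HSD17B4 was well above background on all 7 arrays. Its log2 signal was 9.44, 9.33, 9.21 and 9.25 in Dox, against 9.44, 9.29 and 9.38 in No dox. The groups overlapped, and the difference of −0.07 (adjusted p = 0.86 from limma) had a 95% CI of −0.24 to 0.11, with bounds of 0.844-fold and 1.08-fold. HSD17B6, by contrast, was above background on 3 of 4 Dox arrays and 1 of 3 No dox arrays. Its log2 signal was 4.97, 5.20, 4.64 and 5.24 in Dox, against 4.58, 4.76 and 4.87 in No dox. Dox replicate 3 lay among the No dox arrays, and the difference of 0.27 (95% CI −0.04 to 0.59) did not pass (adjusted p = 0.64 from limma). On the authors' values HSD17B6 differed by 0.09 (adjusted p = 0.64 from limma).

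**Figure D3:**
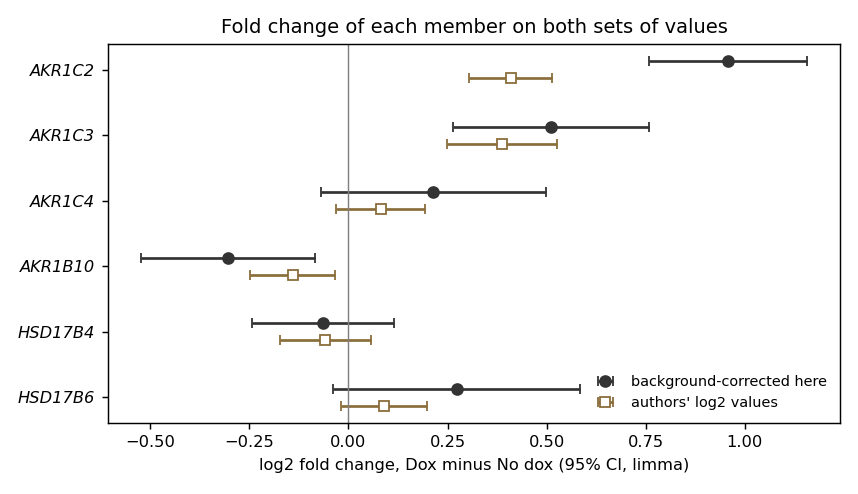
Log2 fold change (horizontal axis, Dox minus No dox) with its 95% CI from limma for the 6 member probes, filled circles after background correction here and open squares on the authors' log2 values. AKR1C2 differs most between the 2 sets (0.96 and 0.41), AKR1C3 is similar on both (0.51 and 0.39), and the intervals of AKR1C4, HSD17B4 and HSD17B6 include 0. The intervals are not adjusted for the number of probes.

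Genes of related pathways outside the set were compared in the same fit. In all, 7 lists of 127 genes were compared, of which 70 genes had 92 named tested probes. As 4275 tested probes have no name, a gene without a named one was not shown to be undetected. None of the 92 probes was called higher or lower at an adjusted p under 0.05 from limma, in the background-corrected or the authors' values, and 4 had an unadjusted p under 0.05. With 0.134% of all tested probes called (0.522% on the authors' values) and 8.50% at an unadjusted p under 0.05, a count of 0 among 92 does not set these lists apart. The median log2 fold change over the 92 was −0.01, with 45 above 0 (48.9%), against −0.00085 and 49.7% over all tested probes.

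Of the 4 further aldo-keto reductases with a named tested probe, none lay beyond −0.04 or 0.09. AKR7A2, which reduces succinic semialdehyde and aflatoxin aldehydes, had a log2 fold change of 0.06. Over 15 probes of other hydroxysteroid dehydrogenases the range was −0.34 to 0.25. HSD11B2, which inactivates cortisol, was at the lower end (4.94 ± 0.10 in Dox, SD, n = 4, and 5.27 ± 0.12 in No dox, SD, n = 3), and its adjusted p was 0.33 from limma. HSD17B11, a lipid droplet enzyme, had 0.25 at 1 probe and 0.00 at the other (adjusted p = 0.63 and 0.99 from limma). Among 24 probes of retinol and related short-chain dehydrogenases, RDH10, which makes retinal from retinol, had 0.21 (adjusted p = 0.53 from limma).

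In the list of steroid synthesis and clearance, 8 of 28 genes had a named tested probe, and the 9 probes ranged from −0.08 to 0.12. POR, the electron donor of the microsomal cytochromes P450, had the largest of these values (0.12, adjusted p = 0.68 from limma). Of 13 steroid receptors and androgen targets, 4 had a named tested probe. They included NR3C1, the glucocorticoid receptor (0.05), and FKBP5, a target of steroid receptors (−0.07). The 20 probes of NRF2 targets other than aldo-keto reductases had a median of −0.05, with 7 above 0. Among them FTL, the ferritin light chain, had 0.15 at 1 of 2 probes, and GCLM, of glutathione synthesis, had −0.15 at 1 of 2 probes (adjusted p = 0.56 and 0.63 from limma). In prostaglandin metabolism, 16 probes had a median of −0.07, and PTGFR, the receptor of the prostaglandin that AKR1C3 can form, had −0.19 at 1 of 2 probes (adjusted p = 0.58 from limma).

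**Figure D4:**
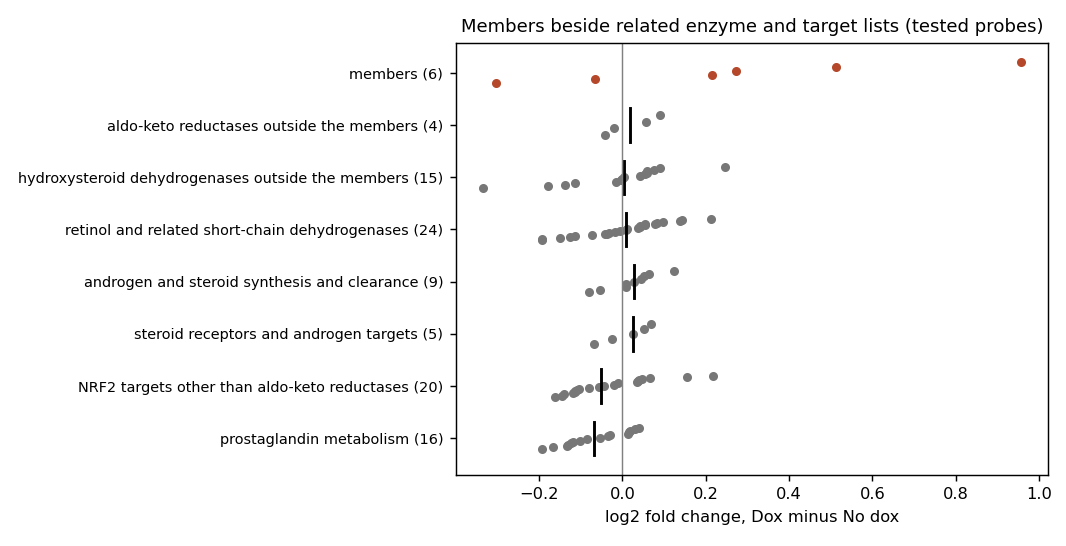
Log2 fold change (horizontal axis, Dox minus No dox) of the 6 member probes (top row) and of the tested probes of 7 related lists, with the number of probes in brackets and a black line at each list's median. The listed probes lie between −0.34 and 0.25, and AKR1C2 and AKR1C3 are at 0.96 and 0.51. HSD17B6, at 0.27, is close to the highest listed probe, and its interval of −0.04 to 0.59 includes no change (adjusted p = 0.64 from limma). The members were chosen on this same comparison, so their place relative to the lists tests nothing.

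The 3 named probes outside the set whose log2 signal followed AKR1C2 most closely over the 7 arrays were MAGED1 (Pearson r = 0.995), AGBL5 (r = 0.995) and GEM (r = 0.986). MAGED1 encodes an adaptor of the MAGE family, AGBL5 a tubulin deglutamylase and GEM a small GTP-binding protein. Their log2 fold changes were 0.26, 0.19 and 0.38, none of which passed (adjusted p = 0.32, 0.49 and 0.13 from limma). These correlations are across the same arrays and include the difference between the groups. With the group means taken out they were 0.91, 0.93 and 0.67. The probes were picked for the highest correlation on these arrays among the 15060 tested probes with 1 gene name. High values therefore do not test a link to AKR1C2.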

How the data were processed

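Expression was measured on Illumina BeadChips in 4 Dox and 3 No dox samples. The authors deposited the signal intensity of each probe with a detection p-value, as extracted with GenomeStudio, without normalization between arrays. They also deposited log2 values of 19337 probes, which per the paper were background-corrected and quantile-normalized with lumi. Quantile normalization of the intensity on the log2 scale, with background left uncorrected, came within 0.046 of these values, and the median of their columns was 7.16. From the deposited intensity, values were computed here with neqc of limma 3.58.1 (R 4.3.3), which infers the negative controls for its background model out of the detection p-values, adds an offset of 16, normalizes by quantiles and takes log2.

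The limma fit, a mean for each of the 2 groups with moderated variances, took in probes that any array detected (detection p-value under 0.01), with Benjamini-Hochberg adjustment over all 19337. The fit was checked on simulated data. Differences between AKR1C probes were tested with an exact permutation test. Gene names are from the platform annotation, updated through RefSeq gene identifiers, and 4275 tested probes have no name and 2 have several. The members and gene lists were chosen with earlier results of these data known. Every member probe is described, and in each list the probes named are among the 3 of smallest p, except the second HSD17B11 probe, named after its value was seen. Promoter windows were aligned with Biopython 1.88. The number of arrays limits the precision. Alternatives covered background correction, normalization, filtering, the variance model, weights per array, a block for the replicate number, and leaving out arrays in turn.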

Additional observations from a re-analysis of the deposited data

Results flagged for a closer look

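Of 33 probes and probe differences examined in the Dox arrays, 3 showed a single array with a wide gap to its nearest neighbour relative to the range of the group. About 1 in 20 groups does so by chance. The gap was 0.892 of the range for AKR1C2 minus AKR1C4, where replicate 4 was lowest, as it also was in No dox. It was 0.932 for KCNAB1, a potassium channel subunit with an aldo-keto reductase fold, and 0.839 for RDH10.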

How the results depend on the processing

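AKR1C2 was higher in Dox under all alternatives run, with a log2 fold change between 0.41 and 1.01, and was called in 17 of 18 (0.89 to 1.01 with each array left out). AKR1C3 lay between 0.39 and 0.66 and was called in 5 of 18 alternatives: 0.39 without background correction and for the authors' values, 0.42 with normexp without controls, 0.51 with an intensity trend and 0.66 without No dox replicate 4 (0.42 to 0.66 with each array left out). No direction turned. The number of members called higher was 2 without background correction, with normexp without controls, on the authors' values and with an intensity trend, and 1 to 2 with each array left out (2 without No dox replicate 4). With the replicate number as a block over 6 arrays it was 0, with AKR1C2 at 0.97 (adjusted p = 0.073 from limma), against an adjusted p of 0.011 from limma on the same 6 arrays without the block. Taken over all tested probes, same-numbered arrays did not deviate together (their deviations correlated at −0.03, 0.01 and −0.02). For 0 of 6 arrays was the same number the best match. This does not cover single members, as replicate 4 was highest in both groups for AKR1C3, AKR1C4 and HSD17B6. Over all tested probes, 26 were called higher and 0 lower, against 76 and 25 both for the authors' values and without background correction, 66 and 21 with normexp, 93 and 39 with an intensity trend, 6 higher under the block and 12 to 18 higher with an array left out. The cause was not tested. AKR1C2 minus AKR1C4 was 0.33 without background correction and for the authors' values, 0.41 with normexp and 0.64 to 0.87 with each array left out, where no split allows a p under 0.05. AKR1C2 minus AKR1C3 was 0.02 without background correction and 0.09 with normexp. A BeadChip block was not run. HSD17B6 was not tested when detection on every array of a group was required.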
